A study of Mus musculus with 137 samples.

Results

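The genes that license DNA for replication, and Pcna, were followed in crypts and villi of the mouse duodenum. The set held 10 genes, Mcm2, Mcm3, Mcm4, Mcm5, Mcm6, Mcm7, Orc1, Cdc6, Cdt1 and Pcna, of the 21450 genes with a probe, and they were chosen by name. Each gene was represented by the probe with the highest total count among its probes, and all 10 of those probes passed the filter on low counts. The animals were female wildtype B6C3F1 mice whose drinking water carried sodium dichromate dihydrate over 7 or 90 days, and tissue was taken on days 8 and 91. The doses were 0.1, 1.4, 5, 20, 60 and 180 ppm Cr(VI), hexavalent chromium, and untreated mice (0 ppm) drank tap water. Crypt and villus were scraped separately from fixed, paraffin-embedded sections of each duodenum, so most mice gave a library of each, and RNA was read by TempO-Seq, which counts a ligated probe pair for each transcript.

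There were 137 libraries from 71 mice, 71 of crypt and 66 of villus, in 28 groups of compartment, dose and day. Groups held 5 libraries, except that the 0.1 ppm crypts of day 8 numbered 6 and that 4 villus groups (day 8 at 5 ppm, 20 ppm and 180 ppm, and the untreated group of day 91) numbered 4. Totals ran from 1463938 to 7199801 counts, with a median of 3592983. The shallowest group was the untreated villus on day 91, with totals of 1667014 to 2678299. Markers of stem cells (Lgr5, Olfm4, Ascl2, Smoc2, Axin2 and Ephb2) followed the labels: the median of their summed level was 765.3 CPM (a count scaled by the total of its library) in untreated crypt on day 8 and 291.3 CPM in untreated villus on day 8, and on day 91 the medians were 780.6 and 172.6 CPM. On day 8 the untreated libraries of 2 mice stood apart in that sum. The crypt of mouse 49 had 244 CPM, the lowest of its group, and the villus of mouse 48 had 694.7 CPM, the highest of its group. Markers of pancreatic acinar cells ranged from 3.557 to 146600 CPM over the villus libraries of day 91 alone.

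A cell may copy its DNA once per division because replication origins are licensed ahead of S phase. The origin recognition complex, of which Orc1 is a subunit, binds DNA and recruits Cdc6 and Cdt1, which together load the ring-shaped Mcm2 to Mcm7 helicase. The loaded helicase stays inactive until kinases fire the origin, and Pcna then clamps the DNA polymerases to the template and also serves DNA repair. In the intestine these proteins are characteristic of the dividing cells of the crypt, and they are lost as cells leave the cycle and climb the villus. Many of the genes are targets of E2F factors, which act at the G1/S boundary.

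On GRCm38, in the GENCODE annotation, the genes lie on 8 chromosomes: Mcm2 at chr6:88883474-88898780, Mcm3 at chr1:20802968-20820312, Mcm4 at chr16:15623897-15637400, Mcm5 at chr8:75109569-75128439, Mcm6 at chr1:128331590-128359664, Mcm7 at chr5:138164583-138172422, Orc1 at chr4:108579423-108614833, Cdc6 at chr11:98907801-98923940, Cdt1 at chr8:122568015-122573554, Pcna at chr2:132249162-132253314. Orc1, Cdc6, Cdt1 and Mcm5 are on the plus strand and the others on the minus strand. The place of a probe within its transcript was not used here. RefSeq promoter windows on GRCm38.p6, 250 bases before to 50 after the annotated start, were matched for 9 of the 10 genes, without Mcm4. They were searched on both strands for the E2F words TTTGGCGC, TTTCCCGC, TTTGCCGC and TTTCGCGC, for CCAAT and for the GC box GGGCGG. An E2F word was present in 7 of the 9 genes (Mcm3, Mcm5, Mcm6, Mcm7, Orc1, Cdc6 and Cdt1) and in 2.26% of all 32851 windows. CCAAT was present in 7 of the 9, all but Cdc6 and Cdt1, against 37.4% of all windows, and the GC box was in 7 of the 9, all but Mcm5 and Cdc6, against 35.7%. The windows of the 5 genes whose level moved with dose in the crypt or at several doses in the villus are shown with these words in capitals, read 5′ to 3′ on the strand of the gene. The Mcm6 window held 3 E2F matches, 2 of which overlap, the Orc1 and Cdc6 windows held 1 each, and those of Mcm2 and Pcna held none of the 4 words. A match is a run of letters and no evidence of binding.
Mcm2 (chr6:88898731-88899030, minus strand): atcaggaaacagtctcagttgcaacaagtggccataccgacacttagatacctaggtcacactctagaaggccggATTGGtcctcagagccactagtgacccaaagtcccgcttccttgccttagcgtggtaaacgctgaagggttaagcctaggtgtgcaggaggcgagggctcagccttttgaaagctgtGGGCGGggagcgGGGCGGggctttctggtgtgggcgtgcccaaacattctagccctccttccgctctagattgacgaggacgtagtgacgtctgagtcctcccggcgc
Mcm6 (chr1:128359656-128359955, minus strand): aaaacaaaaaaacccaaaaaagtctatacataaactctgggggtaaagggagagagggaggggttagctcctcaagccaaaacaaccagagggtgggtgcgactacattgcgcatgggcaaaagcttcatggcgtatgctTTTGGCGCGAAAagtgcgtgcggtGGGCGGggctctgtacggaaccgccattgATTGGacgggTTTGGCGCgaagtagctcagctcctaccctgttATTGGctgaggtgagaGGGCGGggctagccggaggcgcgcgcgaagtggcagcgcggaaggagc
Orc1 (chr4:108579204-108579503, plus strand): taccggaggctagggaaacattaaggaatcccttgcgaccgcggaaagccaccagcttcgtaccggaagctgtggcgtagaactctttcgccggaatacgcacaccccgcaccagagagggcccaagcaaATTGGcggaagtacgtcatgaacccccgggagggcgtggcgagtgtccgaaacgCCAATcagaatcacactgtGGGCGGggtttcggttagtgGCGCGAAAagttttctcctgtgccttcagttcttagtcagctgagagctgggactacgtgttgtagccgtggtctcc
Cdc6 (chr11:98907901-98908200, plus strand): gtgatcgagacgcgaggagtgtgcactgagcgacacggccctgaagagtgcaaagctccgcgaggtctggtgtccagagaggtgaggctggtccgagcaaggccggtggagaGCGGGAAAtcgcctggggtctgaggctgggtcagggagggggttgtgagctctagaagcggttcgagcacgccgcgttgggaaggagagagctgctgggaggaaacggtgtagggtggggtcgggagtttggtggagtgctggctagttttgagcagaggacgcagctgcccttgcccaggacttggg
Pcna (chr2:132253131-132253430, minus strand): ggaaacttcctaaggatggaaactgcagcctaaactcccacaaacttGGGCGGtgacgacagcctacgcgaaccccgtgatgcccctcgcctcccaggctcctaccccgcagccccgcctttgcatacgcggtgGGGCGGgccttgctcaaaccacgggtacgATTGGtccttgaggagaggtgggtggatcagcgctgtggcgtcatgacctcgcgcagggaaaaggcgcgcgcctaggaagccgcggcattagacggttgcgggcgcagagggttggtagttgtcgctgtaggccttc

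Levels are given as CPM of the library scaled by TMM, a factor that offsets differences in composition, and are compared only within a gene, since each probe has its own efficiency. A change is a log2 fold change with its standard error (SE), and a probe was called when its adjusted p, from the edgeR quasi-likelihood test with Benjamini-Hochberg adjustment over all 26365 probes tested, was under 0.1. A trend is the log2 change per step of dose over the 7 doses in order. The 4 trends and 24 comparisons of a dose with untreated libraries were made from 1 fit of all libraries, and every comparison within a compartment and day shares its untreated libraries. In the crypt on day 8 the median log2 fold change over the 10 genes was 0.64 at 60 ppm and 0.58 at 180 ppm, while the medians over all probes were −0.05 and −0.04, but no member was called at any of the 6 doses. From 0.1 to 180 ppm, 0.0152%, 0.00379%, 0.0152%, 0.247%, 2.14% and 4.13% of all probes were called there. At each of 20, 60 and 180 ppm 3 of the 10 had an unadjusted p under 0.05, a limit at which the share of all probes was not computed. On day 91 the crypt medians were 0.55 at 60 ppm and 0.59 at 180 ppm, with 1 and 3 members called higher, beside 9.78% and 3.8% of all probes called higher. At 0.1, 1.4, 5 and 20 ppm on day 91 no member was called in the crypt, where 0, 0, 0.00379% and 0.372% of all probes were called higher. The scaling of the libraries moved the values of day 91: with DESeq2 size factors in place of TMM the median over all probes shifted by −0.246 at 60 ppm and −0.121 at 180 ppm in the crypt, the share of called probes that were higher went from 67.4% to 40.2% and from 58.6% to 44.3%, and the median over the 10 genes was 0.26 and 0.47. No member was then called at either dose in the crypt.

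**Figure D1:**
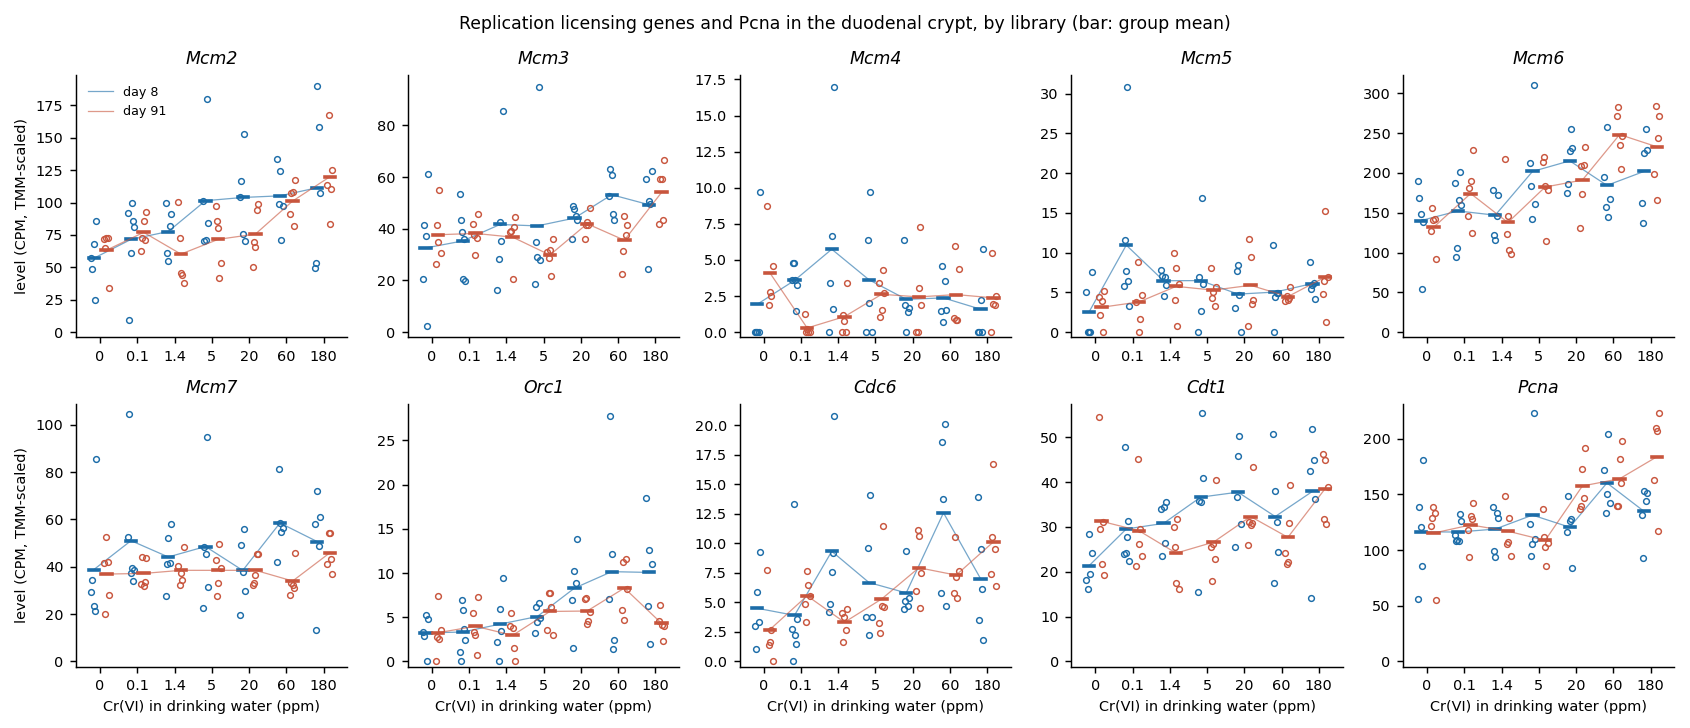
Level of each of the 10 genes in every crypt library (points, CPM scaled by TMM) against the dose of Cr(VI) in ppm, in order and not to scale, on day 8 and day 91, with bars and lines at the group means. Mcm2, Mcm6 and Pcna stood above the untreated means at 60 and 180 ppm on both days. Mcm3, Mcm7 and Cdt1 did so at 180 ppm on both days and at 60 ppm on day 8. Mcm4, Mcm5, Orc1 and Cdc6 were measured near the limit of detection.

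Of the helicase genes, Mcm2 and Mcm6 rose in the crypt with dose, on both days. Mcm6 on day 91 was 127.1, 155.8, 141, 141.8 and 91.72 CPM in the 5 untreated crypts, 271.3, 283.1, 234.6, 205.3 and 246 CPM at 60 ppm, and 199.1, 284, 165.7, 243.7 and 271.1 CPM at 180 ppm. Every library at either dose was above every untreated library. The log2 fold change was 0.91 (SE 0.273, adjusted p = 0.0145) at 60 ppm and 0.82 (SE 0.272, adjusted p = 0.0613) at 180 ppm, and the trend was 0.14 per dose step (SE 0.0363, adjusted p = 0.00236). On day 8 the Mcm6 trend was smaller, at 0.10 per step (adjusted p = 0.0953), from 54.52 to 189.9 CPM in untreated crypts to 137.6 to 255.5 CPM at 180 ppm, with overlapping groups. Without the libraries of mice 48 and 49 the day 8 trend was 0.08 (adjusted p = 0.36). With DESeq2 size factors the day 91 trend was still called, but the difference was 0.63 at 60 ppm (adjusted p = 0.109) and 0.69 at 180 ppm (adjusted p = 0.122), and at 180 ppm it was also not called without mouse 3 (0.81), 8 (0.72), 484 (0.74), 488 (0.79) or 490 (0.77).

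Mcm2 had trends of 0.16 per step (SE 0.0494, adjusted p = 0.0322) on day 8 and 0.14 (SE 0.0493, adjusted p = 0.0444) on day 91 in the crypt. Its 5 untreated crypts on day 91 held 71.78, 65.22, 72.83, 72.8 and 33.74 CPM, and those at 180 ppm held 113.4, 167.3, 83.74, 110.2 and 125 CPM. The groups did not overlap, but the difference of 0.91 on the log2 scale was not called (SE 0.370, adjusted p = 0.168). In this untreated group mouse 8 was the lowest for Mcm2, Mcm6 and Pcna, and its crypt also had the lowest stem cell sum, 564.1 CPM. Trends with rank of dose were called for 3 members in the crypt on day 8 (Mcm2, Mcm6 and Orc1, all rising), where 9.47% of all probes were called and 3.69% were rising, and for 4 on day 91 (Mcm2, Mcm6, Cdc6 and Pcna, all rising), where 18.6% were called and 10.7% were rising. When only the exposed groups were used, Orc1 was the 1 member called on day 8 (9.45% of all probes), and Mcm2, Mcm6 and Pcna were called on day 91 (13.6%). The Mcm2 trend was not called on day 8 without mice 48 and 49 (0.15, adjusted p = 0.127), which left Orc1 alone, nor on day 91 with DESeq2 size factors (0.11, adjusted p = 0.142). With trended dispersions no member had a called trend on day 8, and Mcm6 and Pcna had one on day 91.

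Cell type markers moved in the same libraries. The 9 enterocyte markers summed to 25000 to 66790 CPM in untreated crypts and to 8467 to 16600 CPM at 180 ppm on day 8, and to 22400 to 46630 and 12850 to 35590 CPM on day 91. The stem cell sum at 180 ppm on day 91 was 781 to 1042 CPM, beside 564.1 to 881.7 CPM in untreated crypts, and the summed stromal markers fell from a median of 1509 to 853 CPM. On day 8 the median stem cell sum was 765.3 CPM in untreated crypts and lower, 615.3 CPM, at 180 ppm (ranges 244 to 905 and 520.8 to 849 CPM). At 60 ppm on day 91, where Mcm6 was called, the enterocyte sum was not lower, at 35220 to 70560 CPM. The part of these shifts in the rise of Mcm2, Mcm6 and Pcna was not tested, and in tissue scrapings more cells of a type cannot be told apart from more RNA per cell.

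The remaining helicase genes had no called dose trend in the crypt. Mcm3 and Mcm7 were read in all 71 crypt libraries. On day 91 the group means lay between 29.85 and 54.09 CPM for Mcm3 and between 33.99 and 45.92 CPM for Mcm7. Both were highest at 180 ppm, and the untreated means were 37.7 and 36.93 CPM. On day 8 the means at 0, 60 and 180 ppm were 32.56, 53.17 and 49.31 CPM for Mcm3. For Mcm7 they were 38.8, 58.52 and 50.65 CPM. Their trends on day 91 were 0.05 (SE 0.0649, adjusted p = 0.701) and 0.02 (SE 0.0517, adjusted p = 0.902) per step. Mcm4 and Mcm5 were too sparse to follow: Mcm4 had more than 3 counts in 48 of 71 crypt and 14 of 66 villus libraries, and Mcm5 in 61 and 20. A trend was called for Mcm5 in the villus on day 8, at −1.06 per step (SE 0.403, adjusted p = 0.0755), but at 60 and 180 ppm all 9 libraries were at 0 and 2 of the 5 untreated libraries had a read, so its size depends on the prior count of the fit. The subunits of 1 ring were thus measured with very different precision, and the change of Mcm2 and Mcm6 was not shown to differ from that of the other subunits.

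**Figure D2:**
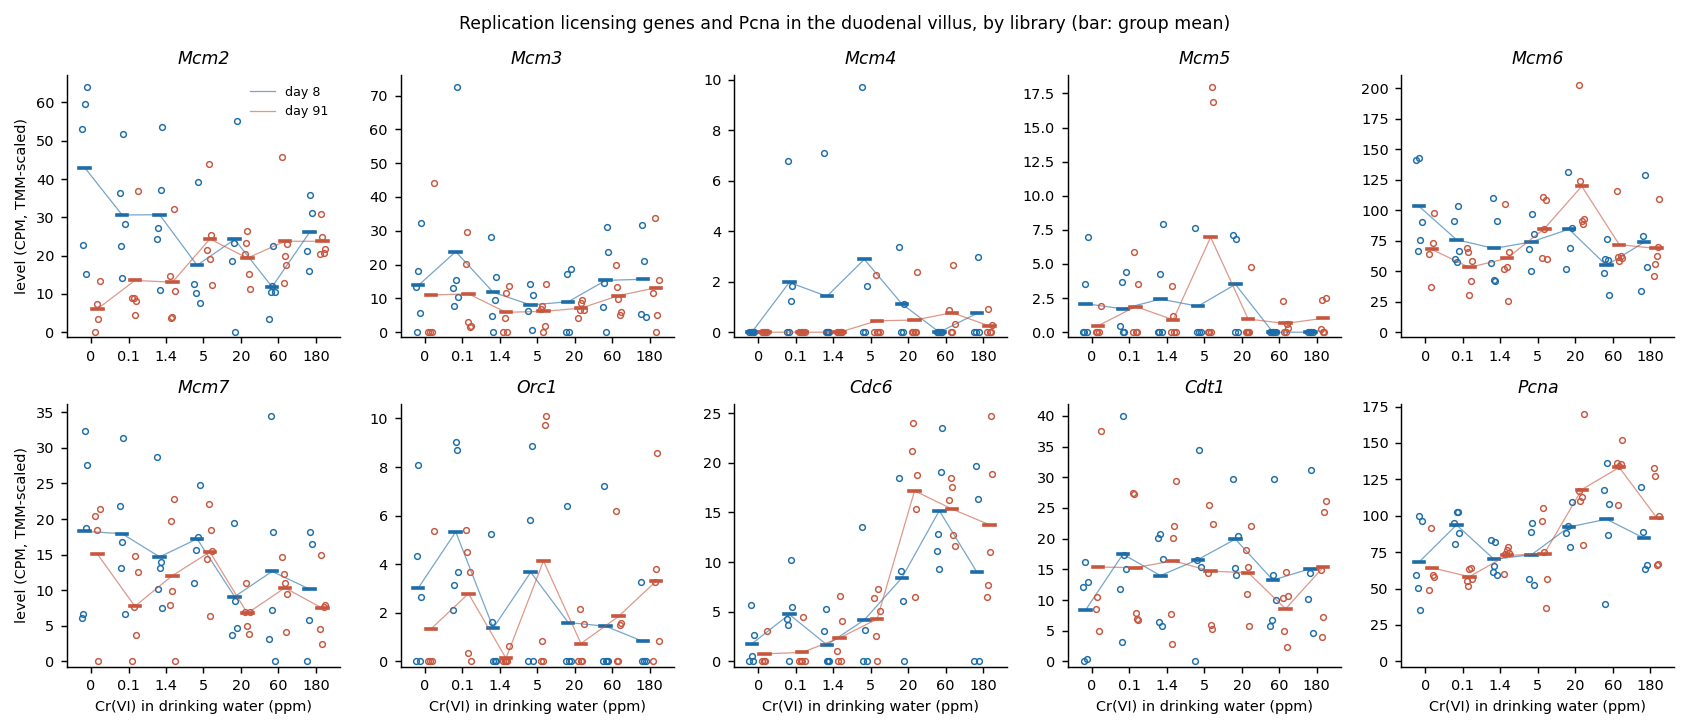
Level of each of the 10 genes in every villus library (points, CPM scaled by TMM) against the dose of Cr(VI) in ppm, in order and not to scale, on day 8 and day 91, with bars and lines at the group means. Cdc6 rose from near 0 to group means of 13.76 to 17.18 CPM at 20 ppm and above on day 91, and Mcm2 was low in the untreated group of day 91.

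In the villus Mcm2, by the probe used, moved in opposite directions on the 2 days. On day 8 the untreated villi held 53.14, 22.8, 59.62, 15.32 and 64.08 CPM, and those at 60 ppm held 3.511, 10.57, 12.12, 22.49 and 10.57 CPM. Mcm2 was lower at 60 ppm by a log2 fold change of −1.92 (SE 0.482, adjusted p = 0.00663), and the groups overlapped at 15.32 to 22.49 CPM. The trend was −0.20 per step (SE 0.0626, adjusted p = 0.0274), and it was not called over the exposed groups alone (−0.15, adjusted p = 0.286). Mcm6 was lower at the same dose, from 66.71 to 143.3 CPM to 30.2 to 76.35 CPM, by −0.93 (SE 0.296, adjusted p = 0.0499). Crypt markers were lower in the same comparison: the median Paneth cell sum was 3164 CPM in untreated villi and 425.8 CPM at 60 ppm, with ranges of 1254 to 11450 and 102.7 to 6161 CPM, and the median stem cell sum was 291.3 and 165.6 CPM. The fall was not confined to crypt markers: the median enterocyte sum was 70790 and 46470 CPM, and lymphocyte, stromal and acinar medians were lower too. The median goblet sum was higher, at 1969 and 2652 CPM. The part of these shifts in the fall of Mcm2 and Mcm6 was not tested. At 60 ppm on day 8, 3 members were called in the villus (Mcm2 and Mcm6 lower, Cdc6 higher), where 6.58% of all probes were called. Mcm2 remained called without any single library of the 2 groups and without mice 48 and 49. Mcm6 was not called without mice 48 and 49 (−0.86, adjusted p = 0.157), without mouse 48 alone (−0.77), without mouse 46 (−0.80), 446 (−0.88) or 450 (−0.75), or in a fit of the villi of day 8 alone (−0.94, adjusted p = 0.133). At 0.1, 1.4, 5, 20 and 180 ppm on day 8 none was called, and the shares of all probes were 0, 1.52%, 0.357%, 2.61% and 5.97%. The day 8 trend in the villus was called for 3 members (Mcm2 and Mcm5 falling, Cdc6 rising), beside 14% of all probes called and 5.86% rising, and over the exposed groups for Cdc6 (14.4% of all probes).

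On day 91 the untreated villi held Mcm2 at 0, 7.385, 3.448 and 13.39 CPM, and those at 180 ppm at 20.37, 30.96, 24.88, 20.77 and 21.7 CPM. These groups did not overlap, and the log2 fold change was 1.92 (SE 0.616, adjusted p = 0.0278). Mcm2 was also called at 5, 20 and 60 ppm, by 1.98, 1.62 and 1.95, and its trend was 0.29 per step (SE 0.0764, adjusted p = 0.00191). These values hold for the probe used, and a further Mcm2 probe had negative fold changes at the same doses. At 180 ppm it was not called without untreated mouse 3 (1.54, adjusted p = 0.144), which had no read, or mouse 6 (1.68, adjusted p = 0.117), and without mouse 7 it was 2.77. At 60 ppm it was not called without mouse 3 (1.55), 6 (1.70) or 402 (1.41) and was 2.80 without mouse 7. On day 8 the villi at 180 ppm held 16.06 to 35.71 CPM, a range that includes the values of day 91. Between untreated villi, Mcm2 was lower on day 91 than on day 8 by −2.79 (SE 0.591, adjusted p = 0.00901), the only member called in that comparison, in which 2.44% of all probes were called. The 180 ppm effect differed between the days by 2.68 (SE 0.767, adjusted p = 0.0859), again for Mcm2 alone and against 0.971% of all probes, and much of this difference lay in the untreated groups. It was not called without mice 48 and 49 (2.76, adjusted p = 0.134) or with DESeq2 size factors (2.44, adjusted p = 0.161). The untreated villi of day 8 also held more stem cell and Paneth cell marker RNA than those of day 91: 191.6 to 694.7 against 74.71 to 484.3 CPM, and 1254 to 11450 against 387.8 to 2092 CPM. Whether crypt material in the scraped villi has a part in the Mcm2 difference was not tested.

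**Figure D3:**
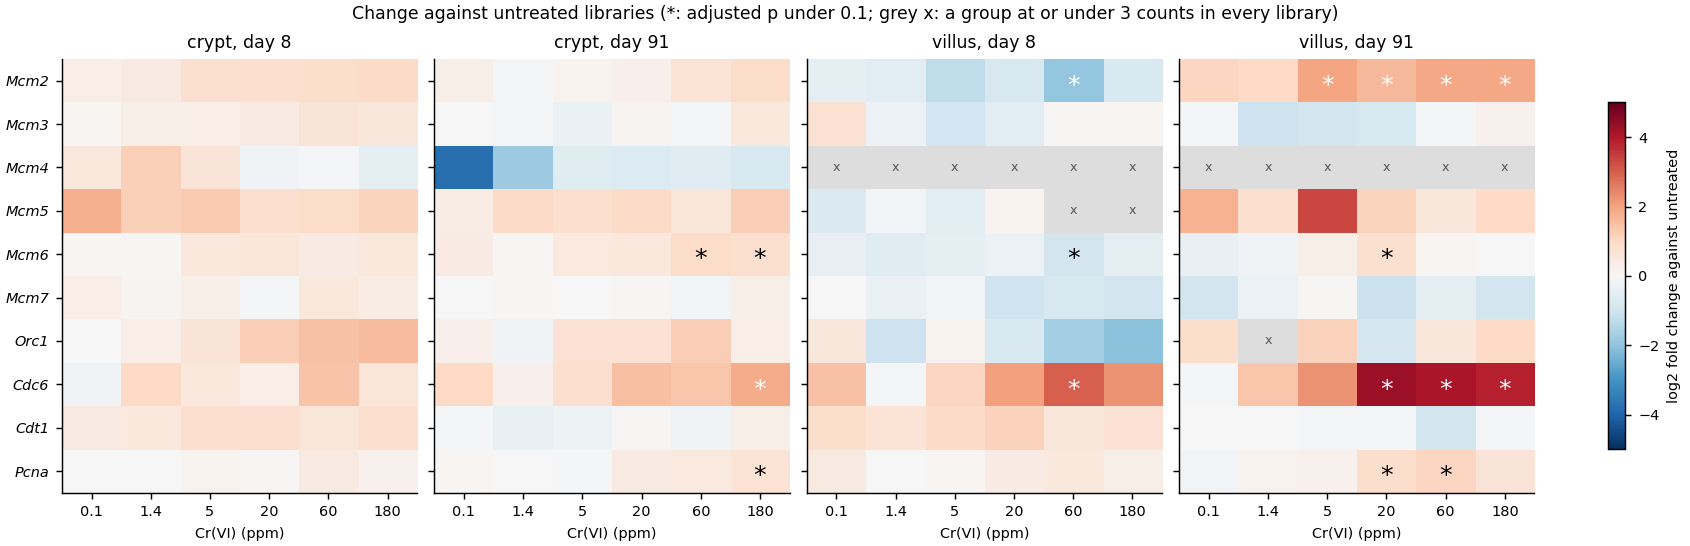
Log2 fold change of each gene against the untreated libraries (colour, clipped at 5 either way) at each dose in ppm, in the crypt and villus on day 8 and day 91. Stars mark an adjusted p under 0.1, and grey crosses mark a pair with a group at or under 3 counts throughout. No star lies in the crypt on day 8, and most lie in the villus on day 91.

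Of the genes that load the helicase, Cdc6 rose in the villus, on both days. On day 8 its untreated villi held 0, 5.699, 0.5396, 0 and 2.64 CPM, and those at 60 ppm held 11.17, 12.79, 9.291, 19.1 and 23.56 CPM. The groups did not overlap, and Cdc6 was higher by 3.00 (SE 0.762, adjusted p = 0.00722). Without any single library it was called, at 2.73 to 3.90, but not without both mouse 48 and mouse 49 (2.40, adjusted p = 0.106). At 180 ppm the 4 villi split, at 0, 19.66, 16.37 and 0 CPM, and the difference of 2.23 was not called (SE 0.847, adjusted p = 0.127). The day 8 trend was 0.43 per step (SE 0.107, adjusted p = 0.00229), and it was called over the exposed groups alone (0.41, adjusted p = 0.0239).

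On day 91, 3 of the 4 untreated villi had no Cdc6 read and mouse 7 had 3.06 CPM. The villi at 20 ppm held 21.24, 24.04, 6.516, 15.32 and 18.79 CPM, those at 60 ppm 16.27, 18.51, 17.58, 12.76 and 11.61 CPM, and those at 180 ppm 6.469, 7.682, 11.06, 24.72 and 18.88 CPM. None of these 15 libraries overlapped the untreated ones, and the 3 group means lay within each other's spread. The log2 fold changes were 4.27 (SE 1.02, adjusted p = 0.00119), 4.09 (SE 1.03, adjusted p = 0.00224) and 3.89 (SE 1.06, adjusted p = 0.00633), and their size depends on the 8 reads of the untreated group. Without any single library Cdc6 was called at 60 and 180 ppm, at 3.42 or above, and without mouse 7, which held those reads, the fitted values were 8.81 and 8.61 and are no measure of size. The trend, 0.82 per step (SE 0.129, adjusted p = 5.56e-08), was called over the exposed groups alone as well (0.86, adjusted p = 4.07e-07). At 0.1, 1.4 and 5 ppm the means were 0.898, 2.36 and 4.26 CPM, and none of those doses was called for Cdc6.

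In the crypt Cdc6 was low on both days, and it rose on day 91. Its untreated crypts on day 91 held 7.76, 1.364, 1.668, 2.696 and 0 CPM, and those at 180 ppm held 7.436, 10.54, 16.71, 9.52 and 6.358 CPM. The difference was 1.85 (SE 0.651, adjusted p = 0.0845), and mouse 3, at 7.76 CPM, was the sole untreated library inside the exposed range. It was not called without mouse 5 (1.70), 6 (1.68), 7 (1.83), 8 (1.62), 484 (1.84), 485 (1.58) or 488 (1.87), and was 2.66 without mouse 3. The trend was 0.27 per step (SE 0.0849, adjusted p = 0.0161), and it was not called by DESeq2 (0.24, adjusted p = 0.126) or with trended dispersions (adjusted p = 0.203). The larger villus trend was not shown to differ from that of the crypt (difference 0.55 per step, SE 0.177, adjusted p = 0.105, beside 2.14% of all probes called), although with the mouse as a replicate block it was called (0.56, adjusted p = 0.0992).

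Orc1 rose in the crypt on day 8 but was read at few counts. Its untreated crypts held 3.295, 2.832, 5.233, 0 and 4.744 CPM, and those at 180 ppm held 18.49, 6.238, 12.63, 1.969 and 11.01 CPM. The trend was 0.31 per step (SE 0.0917, adjusted p = 0.0188), while at 180 ppm the difference of 1.59 was not called (SE 0.693, adjusted p = 0.26). The trend was not called by DESeq2 (0.34, adjusted p = 0.146) or with trended dispersions (adjusted p = 0.32). On day 91 the highest mean was 8.30 CPM at 60 ppm, and the trend of 0.14 was not called (adjusted p = 0.397). Cdt1 had no called trend in either compartment on either day: its means ran from 21.33 CPM in untreated crypts to 37.93 CPM at 180 ppm on day 8 (0.11 per step, SE 0.0532, adjusted p = 0.229), and its villus means on day 91 lay between 8.562 and 16.4 CPM (−0.07 per step, adjusted p = 0.546). Its trends were not tested against those of other members.

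Pcna rose on day 91 in both compartments. In the crypt the untreated libraries held 121.2, 128.8, 138.4, 132.9 and 54.7 CPM, and those at 180 ppm held 163, 209.5, 206.8, 116.8 and 222.7 CPM. The difference was 0.67 (SE 0.230, adjusted p = 0.0787), with mouse 488 inside the untreated range, and the trend was 0.12 per step (SE 0.0308, adjusted p = 0.00316). The difference was not called without mouse 3 (0.69), 8 (0.49), 484 (0.61), 485 (0.61) or 490 (0.59), while the trend was called under each alternative fit and dose score. In the villus the untreated libraries held 48.85, 91.26, 59.39 and 57.76 CPM, and those at 60 ppm held 136.4, 107.5, 134.5, 135.7 and 151.9 CPM, with no overlap. Pcna was higher there by 1.06 (SE 0.265, adjusted p = 0.00228) and at 20 ppm by 0.89 (SE 0.265, adjusted p = 0.0135). The first was called without any single library, and the second was not with DESeq2 size factors (0.53, adjusted p = 0.197). At 180 ppm the values of 66.35 to 132.5 CPM overlapped the untreated ones, and the difference of 0.63 was not called (SE 0.265, adjusted p = 0.123). The villus trend was 0.18 per step (SE 0.0346, adjusted p = 1.46e-05). On day 8 no Pcna trend was called, at 0.06 per step in the crypt (adjusted p = 0.331) and 0.05 in the villus (adjusted p = 0.424).

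In the villus on day 91 the members called higher were Mcm2 at 5 ppm, Mcm2, Mcm6, Cdc6 and Pcna at 20 ppm, Mcm2, Cdc6 and Pcna at 60 ppm, and Mcm2 and Cdc6 at 180 ppm. The shares of all probes called higher were 7.57%, 10.2%, 10.2% and 8.9%, and at 0.1 and 1.4 ppm, where no member was called, they were 0.0152% and 0.0266%. In these comparisons the median over all probes was itself above 0, by 0.435, 0.328, 0.226 and 0.107 on the log2 scale, and the called changes of Mcm2, Cdc6 and Pcna exceeded it, while that of Pcna at 5 ppm (0.23, adjusted p = 0.614) did not. With DESeq2 size factors these medians were 0.265, 0, 0 and 0, the share of called probes that were higher went from 69.5%, 69.4%, 66% and 64.3% to 50.9%, 41.9%, 36% and 40.8%, and at 20 ppm Cdc6 alone of the members was called. Mcm6 at 20 ppm was also not called by DESeq2 (0.48, adjusted p = 0.259) or without mouse 90 (0.76, adjusted p = 0.107). Nor was it called with no filter (0.74, adjusted p = 0.139) or in a fit of these villi alone (0.71, adjusted p = 0.153). At that dose Pcna was not called by DESeq2 (0.52, adjusted p = 0.129), nor Mcm2 with no filter (1.55, adjusted p = 0.118). The trend was called for Mcm2, Cdc6 and Pcna, all rising, beside 26.3% of all probes called and 17% rising, and the same 3 were called over the exposed groups (21.9%) and under each other fit and scaling tried, with Mcm4 added by trended dispersions. The Mcm6 trend in the villus on day 91 was not called (0.07 per step, SE 0.0410, adjusted p = 0.279), and its difference from the crypt trend was not called either (−0.08 per step, adjusted p = 0.71). Summed lymphocyte markers in the villus were 501.9 to 1161 CPM in the untreated group and 1570 to 3790 CPM over 5 and 20 ppm, and the 3 goblet markers with a probe summed to 978.1 to 2200 CPM and, at 60 ppm, to 4421 to 4997 CPM. The enterocyte sum was 57610 to 78300 CPM in untreated villi and 117200 to 183300 CPM at 20 ppm, the dose with the most members called, with no overlap. The stem cell sum was 74.71 to 484.3 CPM in untreated villi, 177.7 to 447 CPM at 60 ppm and 121 to 254.9 CPM at 180 ppm, with Ascl2 at 0 in every library of the first pair of groups. The part of these cell types in the rise of Cdc6 and Pcna was not tested.

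The crypt held more of most members than the villus, and the gap depended on the gene. Over the 14 groups of dose and day, the crypt was called higher for Mcm2 and Mcm7 in 13, for Mcm6 in 12, for Mcm3 in 11, for Pcna in 7, for Mcm5 and Cdt1 in 4, for Orc1 and Cdc6 in 2, and for Mcm4 in none. No member was called lower in the crypt in any group. The log2 difference, crypt minus villus, ran from 0.39 to 3.33 for Mcm2, from 0.44 to 1.77 for Mcm6 and from 0.30 to 1.08 for Pcna. In untreated mice on day 8 no member was called by the edgeR test, although 5 had an unadjusted p under 0.05, and this comparison includes the crypt of mouse 49 and the villus of mouse 48. The share of all probes under that unadjusted limit was not computed. From 0 to 180 ppm on day 8 the crypt was called higher for 0, 4, 6, 5, 4, 8 and 7 members, beside 0.216%, 2.88%, 5.58%, 5.11%, 6.94%, 6.91% and 4.28% of all probes. On day 91 the numbers were 4, 6, 5, 4, 3, 5 and 7, beside 6.98%, 9.88%, 7.43%, 4.95%, 4.2%, 5.23% and 5.09%. The 4 members called in untreated mice on day 91 were Mcm2, Mcm6, Mcm7 and Pcna. Without the villus of mouse 3 only 1 of them was called, and without that of mouse 5 there were 2. With the mouse as a replicate block, on the mice with both libraries, Mcm3, Mcm7, Cdt1 and Pcna were called higher in untreated crypts on day 8 (1.29, 1.10, 1.36 and 0.78) and 6 members at 20 ppm on day 91. The shares of all probes called in that fit were not computed.

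**Figure D4:**
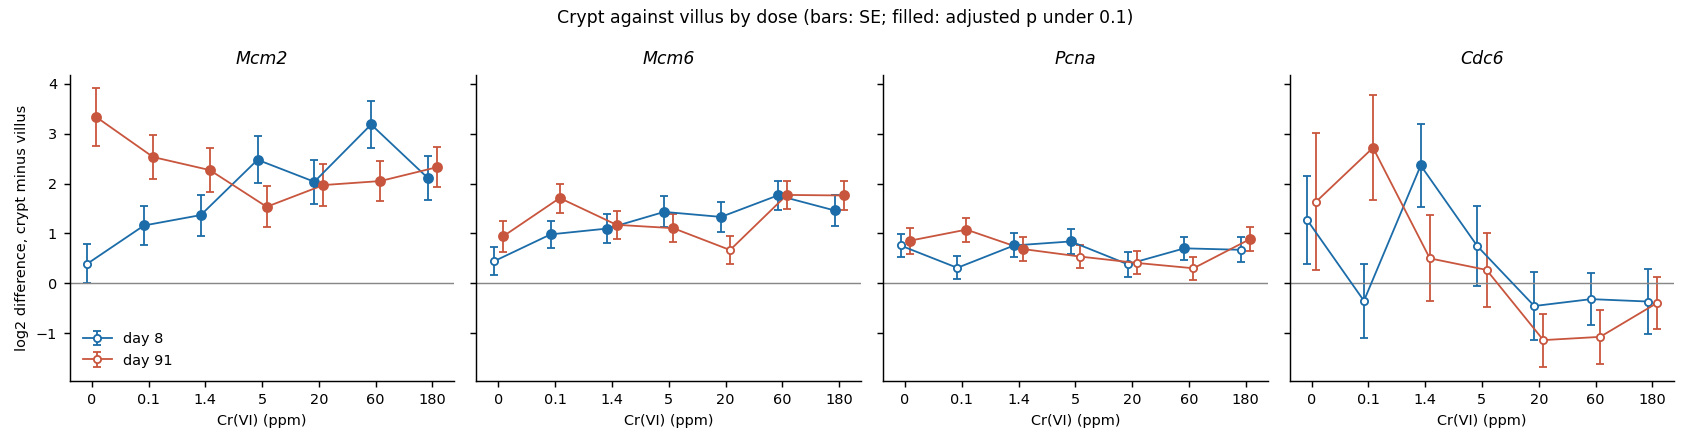
Log2 difference between crypt and villus (vertical axis, crypt minus villus, bars SE) for the members shown, against the dose of Cr(VI) in ppm, on day 8 and day 91, with filled points where the adjusted p was under 0.1. The Mcm2 difference on day 8, by the probe used, was 0.39 in untreated mice, 3.19 at 60 ppm and 2.11 at 180 ppm. The Cdc6 difference lay below 0 at 20, 60 and 180 ppm on both days.

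On day 8 the compartments drew apart in Mcm2, with a difference of 0.39 (SE 0.393, adjusted p = 0.706) in untreated mice and 3.19 (SE 0.463, adjusted p = 1.13e-06) at 60 ppm. At 0.1, 1.4, 5, 20 and 180 ppm it was 1.16, 1.37, 2.48, 2.04 and 2.11. These values hold for the probe used, and another Mcm2 probe had a negative difference at 180 ppm. The value of untreated mice includes the crypt of mouse 49 and the villus of mouse 48. The difference between the villus and crypt trends was −0.35 per step (SE 0.0798, adjusted p = 0.0279), which made Mcm2 the only member called, with 0.205% of all probes. This contrast of trends was chosen after the data had been seen, and it was not computed for the other Mcm2 probes. With the mouse as a replicate block the trend difference was called for Mcm2 (−0.37, adjusted p = 7.93e-07), Mcm6 (−0.20, adjusted p = 0.00723), Mcm7 (−0.27, adjusted p = 0.0607) and Orc1 (−0.71, adjusted p = 0.0737). The shares of all probes called with the block were not computed. Orc1 had more than 3 counts in only 1 villus library each at 20, 60 and 180 ppm on day 8. On day 91 the Mcm2 difference was 3.33 in untreated mice and 2.33 at 180 ppm, and the trends were not shown to differ (0.15 per step, adjusted p = 0.578). Cdc6 was the sole member at or above the crypt level in the villus at the higher doses: the difference on day 91 was 1.64 (SE 1.38) in untreated mice, −1.14 (SE 0.532, adjusted p = 0.243) at 20 ppm, −1.07 (SE 0.535, adjusted p = 0.303) at 60 ppm and −0.40 (SE 0.520, adjusted p = 0.77) at 180 ppm, none of them called. At 60 ppm on day 91 every villus library (11.61 to 18.51 CPM) was above every crypt library (5.379 to 10.52 CPM). No member was called by the edgeR test for the interaction of compartment with 180 ppm, on day 8 (0.00379% of all probes called) or on day 91 (0.224%). In that test 4 members had an unadjusted p under 0.05 on day 8 and 1 on day 91. The share of all probes under this unadjusted limit was not computed. With the mouse as a replicate block the interaction on day 8 was called for Mcm2 (−1.82, adjusted p = 0.0122) and Mcm6 (−1.27, adjusted p = 0.0635). In the crypt no member was called between the days in untreated mice (0.0379% of all probes called) or in the 180 ppm effect (0.11%), and none had an unadjusted p under 0.05 in either.

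The genes around the licensing step were described from 6 lists, by their trends with dose. The share of all probes that rose was 3.69% in the crypt and 5.86% in the villus on day 8, and 10.7% and 17% on day 91, and a list with a share near these differs little from the probes at large. Of 7 other licensing genes, Orc2 and Orc6 rose with dose in the crypt on day 91 and Orc2 rose in the villus, while Orc3 fell in the villus on day 8. The rise of Orc2 in the villus was not called with DESeq2 size factors (0.11 per step, adjusted p = 0.163). With them 0 of the 7 rose and 2 fell in the villus on day 91, and without mice 48 and 49 1 rose and 1 fell. Orc6, a further subunit of the origin recognition complex, went from 39.48 ± 8.911 CPM (SD, n = 5) in untreated crypts to 98.68 ± 28.73 CPM at 180 ppm on day 91, a log2 fold change of 1.32 (SE 0.319, adjusted p = 0.00414). Gmnn, which encodes the Cdt1 inhibitor geminin, was 70.11 ± 20.08 and 95.46 ± 13.71 CPM in the same groups, and the difference was not called (adjusted p = 0.479).

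Of 16 genes of origin firing, 3 rose in the crypt on day 8, 8 on day 91, 1 in the villus on day 8 and 5 on day 91, and none fell. On the scale of DESeq2 size factors the rising genes of day 91 were 6 and 3, and without mice 48 and 49 that of the crypt on day 8 was 1. Mcm10, which acts as the helicase is switched on, rose in all 4 settings. On day 91 it went from 11.19 ± 5.494 (SD, n = 5) to 48.23 ± 36.02 CPM at 180 ppm in the crypt, by 2.05 (SE 0.424, adjusted p = 0.000512), and from 6.467 ± 5.331 (SD, n = 4) to 41.57 ± 27.84 CPM in the villus, by 2.67 (SE 0.574, adjusted p = 0.000309). Both pairs of groups were free of overlap. Dbf4, the activator of the kinase Cdc7 that fires loaded helicases, was higher at 180 ppm on day 91 by 1.39 in the crypt (adjusted p = 0.0793) and by 2.27 in the villus (adjusted p = 0.0801). Cdc45, a subunit of the active helicase, was read at 3.593 ± 2.397 and 9.135 ± 4.627 CPM in the crypt and was not called (adjusted p = 0.296).

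Of 19 genes of G1/S control, 4 rose in the crypt on day 8, 5 rose and 2 fell on day 91, 1 rose and 2 fell in the villus on day 8, and 7 rose and 1 fell on day 91. Under DESeq2 size factors 4 rose in the crypt and 3 in the villus on day 91, and without mice 48 and 49 1 rose in the crypt on day 8. Ccne1, which encodes the cyclin that drives S phase entry, rose in the crypt from 16.86 ± 2.634 to 60.21 ± 16.46 CPM at 180 ppm on day 91 (1.82, SE 0.440, adjusted p = 0.00375) and in the villus from 4.135 ± 4.89 to 17.35 ± 3.024 CPM (2.0, SE 0.734, adjusted p = 0.0632). E2f3 was higher in both (1.23, adjusted p = 0.0571, and 1.36, adjusted p = 0.0449), and Cdk2, the kinase partner of cyclin E, in the villus (1.82, adjusted p = 0.0314). E2f1 was not called in either at 180 ppm (adjusted p = 0.433 and 0.47), but it was in the crypt at 60 ppm on day 91 (1.71, adjusted p = 0.0451, and 1.43 with adjusted p = 0.117 by DESeq2 size factors). Cdkn1b, an inhibitor of cyclin-dependent kinases, fell in the villus on both days and in the crypt on day 91. Cdkn1a, another such inhibitor, was higher in the crypt at 180 ppm on day 91 by 1.10 (adjusted p = 0.0838) and stood at 50.46 ± 14.43 and 52.95 ± 20.43 CPM in the villus.

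Of 22 genes of fork synthesis, 3 rose in the crypt on day 8 and 6 on day 91, and in the villus 3 fell on day 8, and 4 rose and 1 fell on day 91, which is near the 17% of all probes that rose there. With DESeq2 size factors 2 rose in the crypt, and 3 rose and 3 fell in the villus, on day 91, and without mice 48 and 49 none rose in the crypt on day 8. Rpa3 and Rpa1, subunits of the same complex on single-stranded DNA, moved apart in the villus at 180 ppm on day 91, by 1.28 (SE 0.436, adjusted p = 0.0408) and −1.19 (SE 0.385, adjusted p = 0.0293). In the crypt the smallest adjusted p values of the list were those of Pole and Rpa3 (0.93 and 0.71, both adjusted p = 0.239). Of 6 genes of nucleotide supply, 2 rose in the crypt on each day and 2 rose in the villus on day 91, and none rose on day 91 in either compartment with DESeq2 size factors. The ribonucleotide reductase genes Rrm2 and Rrm1 were 1.10 and 0.77 higher in the crypt and not called (adjusted p = 0.118 and 0.217), and Rrm2 was not called in the villus (adjusted p = 0.542).

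Of 17 mitotic genes, 12 rose in the crypt on day 8, 9 rose in the crypt on day 91, none was called in the villus on day 8 and 10 rose in the villus on day 91. Under DESeq2 size factors 7 rose in each compartment on day 91, and without mice 48 and 49 5 rose in the crypt on day 8. Plk1, a mitotic kinase, went from 42.83 ± 19.68 to 137.1 ± 45.28 CPM in the crypt at 180 ppm on day 91 (1.67, SE 0.402, adjusted p = 0.00397), Ccnb1, the mitotic cyclin B1, was higher by 1.19 (adjusted p = 0.0396), and Cenpa, a centromeric histone, was higher in the villus by 2.14 (adjusted p = 0.069). The proliferation marker Mki67 was 37.8 ± 13.61 and 62.93 ± 14.79 CPM in the crypt and 19.53 ± 11.11 and 15.41 ± 4.298 CPM in the villus, and Top2a, a topoisomerase of dividing cells, was 167.8 ± 37.27 and 263.7 ± 70.36 CPM and 37.36 ± 36.66 and 42.18 ± 15.11 CPM. Neither was called at that dose (adjusted p = 0.304 and 0.456 in the crypt, 0.775 and 0.915 in the villus). Among the genes named from the 6 lists, the calls at 180 ppm on day 91 of Dbf4 in both compartments, of Cdkn1a in the crypt and of Ccne1, Cdk2, E2f3, Rpa3 and Cenpa in the villus were lost with DESeq2 size factors (adjusted p = 0.101 to 0.152).

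**Figure D5:**
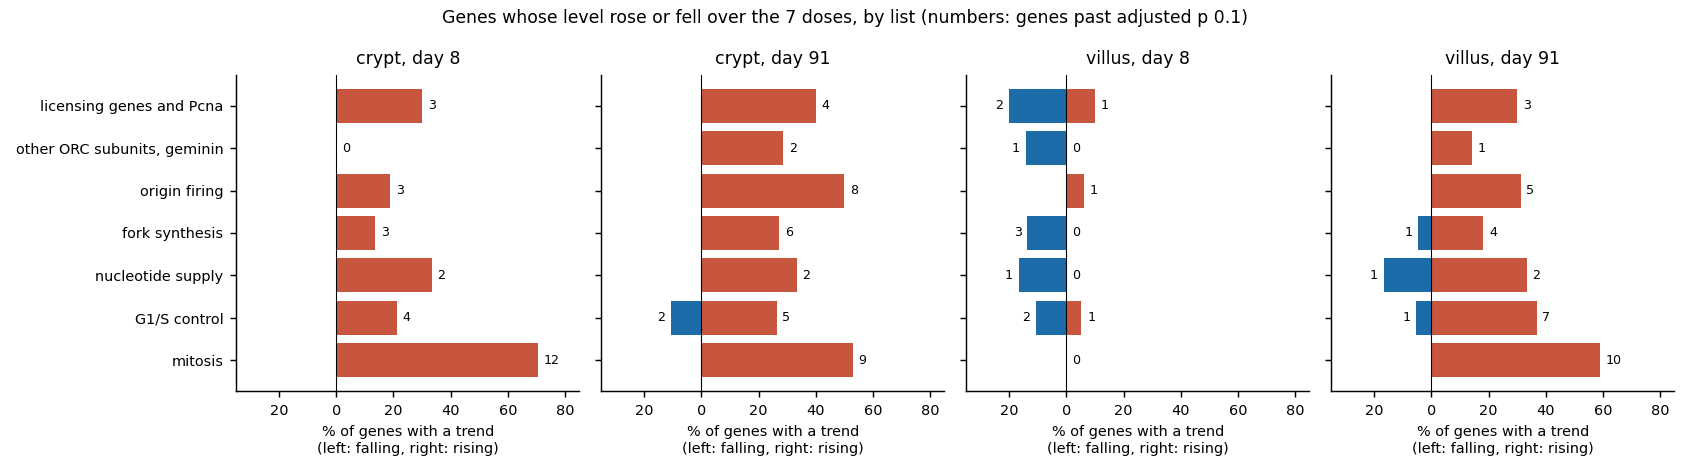
Share of the genes of each list, in percent, whose level rose (right) or fell (left) over the 7 doses at an adjusted p under 0.1, in the crypt and villus on day 8 and day 91, with the number of genes beside each bar. The mitosis list had 12 of 17 rising in the crypt on day 8, where the licensing genes and Pcna had 3 of 10, and none in the villus on day 8.

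Over the 28 groups every crypt mean was above every villus mean for 5 of the 10 genes (Mcm2, Mcm3, Mcm6, Mcm7 and Cdt1), and the means of the compartments interleaved for the others. Mcm2 was highest in the crypt at 180 ppm on day 91 (119.9 ± 30.49 CPM, SD, n = 5) and lowest in the untreated villus of day 91 (6.055 ± 5.745 CPM, n = 4), and its crypt means at 5, 20, 60 and 180 ppm on day 8 (101.5 to 111.5 CPM) and at 60 ppm on day 91 (101.2 CPM) lay within the spread of the highest. Mcm6 was highest in the crypt at 60 ppm on day 91 (248.1 ± 30.77 CPM), beside 232.7 ± 49.6 CPM at 180 ppm, and lowest in the villus at 0.1 ppm on day 91 (53.14 ± 16.5 CPM). Pcna and Cdt1 were also highest in the crypt at 180 ppm on day 91 (183.8 ± 43.67 and 38.53 ± 7.196 CPM), as was Mcm3 (54.09 ± 10.89 CPM). Cdc6 had its 3 highest means in the villus of day 91 at 20 ppm (17.18 ± 6.77 CPM), in the villus of day 91 at 60 ppm (15.35 ± 3.021 CPM) and in the villus of day 8 at 60 ppm (15.18 ± 5.958 CPM), which lay within their spread. These orders are descriptions of the group means and were not tested as orders.

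Other probes of the members mostly did not repeat the calls of the probes used. Over all comparisons with such a call, they repeated it in 25 cases. They kept the sign without a call in 85 cases and did not keep it in 18. A further Mcm2 probe with 10962 reads in all libraries, against 31008 for the one used, had a villus trend on day 91 of −0.02 per step (adjusted p = 1) where the one used had 0.29, and in the crypt on day 91 it had 0.06 (adjusted p = 0.61) against 0.14. The third Mcm2 probe, with 1715 reads, had 0.37 per step (adjusted p = 0.533) in that villus trend and values of 0.32 to 1.56 at 5 to 180 ppm, none of them called. The calls of Mcm2 in the villus thus come from 1 of 3 probes. The other Mcm6 probe, with 13749 reads, rose in the crypt on day 91 as the one used did (0.16 per step, adjusted p = 0.0307), and it was called at 5 ppm (1.78, adjusted p = 0.0347) and 20 ppm (1.43, adjusted p = 0.0864) in the villus. The other Cdt1 probe, with 1879 reads, fell in the villus on day 91 (−0.35 per step, adjusted p = 0.0244). For Cdc6 and Pcna the other probes had 286 and 241 reads in 137 libraries, too few to follow.

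Over the 137 libraries the level of each member was compared with the mean of the other 9 on the log2 scale. Pearson's r was highest for Mcm6 (0.796) and Mcm2 (0.774) and lowest for Cdc6 (0.340). Within the 66 villus libraries r was 0.139 to 0.461, and within the 71 crypt libraries 0.237 to 0.651. The 8 genes most like the mean of the members, among 9457 with a mean of at least 5 CPM, were Hist4h4 (r = 0.864), Hist2h3b (0.859), Tuba1b (0.850), Hist1h2bk (0.849), Lmnb1 (0.848), Hist1h3g (0.848), Ptma (0.843) and Hist1h1d (0.841). Of these, 5 encode histones, whose near-identical copies a probe may not tell apart, and the others encode a tubulin, a nuclear lamin and prothymosin. These correlations describe the libraries, which share the difference between crypt and villus, the dose groups and, in pairs, a mouse.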

How the data were processed

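TempO-Seq counts of 30146 probes in 137 libraries were used. The authors counted, for each probe, the reads assigned to it (bcl2fastq 2.17.1.14 and Bowtie in the submitters' processing notes), left out libraries of low depth or diversity, and deposited the counts without normalization. The build to which probes were designed is not given in the sources used here, gene coordinates came from GENCODE on GRCm38, and promoter windows from RefSeq on GRCm38.p6. Compartment, dose, day and mouse came from the labels, all columns had a sample, and the 6 crypt libraries that the labels put at 0.1 ppm on day 8 were kept. The members, the gene lists and the tests were chosen with earlier results of these data known. Named genes were the 10 members, the 2 genes of each list with the smallest adjusted p at 180 ppm on day 91 in each compartment, 7 fixed genes (Gmnn, Cdc45, E2f1, Ccne1, Cdkn1a, Mki67 and Top2a) and the 8 genes most like the members. The result of 1 gene of the nucleotide supply list is not reported here.

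Counts were fitted with edgeR 4.0.16 (R 4.3.3) by 1 quasi-likelihood model with a mean for each of the 28 groups, scaled by TMM, after filterByExpr (26365 probes of 19020 genes) and 1 dispersion for all probes (0.146). Tests were two-sided, with Benjamini-Hochberg adjustment over all probes of a comparison and a threshold of 0.1. SE was the log2 fold change divided by the root of the F statistic, fold changes used a prior count of 0.125, and a group with at most 3 counts in every library was taken as not measured. The steps were tested on simulated data. Replicates are separate mice, and a mouse number joins the crypt and villus of 1 animal. Deviations from the group means were correlated in the 66 such pairs (median r 0.112) and less so between mice of the same group (−0.0299, 269 pairs), so the mouse was used as a replicate block in an alternative fit. The others were DESeq2 1.42.0, its size factors, no filter, trended dispersions, a fit per compartment and day, counts thinned to the smallest total, fits without mouse 90, without mice 48 and 49 or without 1 library, other trend scores and other probes. Promoter words were searched in Python 3.11.15.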

Additional observations from a re-analysis of the deposited data

Results flagged for a closer look

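A library was singled out where its distance to the nearest other library of its group, as a share of the range of the group, passed Dixon's 95% limit. This held for 39 of 272 pairs of member and group, 16 in the crypt and 23 in the villus, where chance gives about 1 in 20, and in 34 of them the library was the highest. The 8 pairs with at most 3 counts in every library were not tested. Many came from sparse probes, in which a single library with reads gives a share of 1.

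In untreated crypts on day 91 mouse 8 was the lowest for Mcm2 (0.805) and Pcna (0.795). In untreated villi on day 91 mouse 7 was the highest for Mcm3, Mcm5, Orc1 and Cdc6 (1 each, since the other libraries were at 0), and mouse 6 was the lowest for Mcm7 (0.862). In untreated crypts on day 8 mouse 50 was the highest for Mcm4 (1) and Mcm7 (0.792). These libraries belong to the controls of the comparisons above.

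At 5 ppm on day 8 mouse 289 was the highest in the crypt for Mcm2 (0.717), Mcm3 (0.79) and Pcna (0.771) and in the villus for Mcm2 (0.841), while mouse 286 was the highest for Mcm5 in the villus (1). At 60 ppm on day 91 mouse 402 was the highest villus for Mcm5 (0.742), Mcm6 (0.927) and Orc1 (0.747), and mouse 406 was the highest crypt for Mcm7 (0.719). At 0.1 ppm on day 8 the highest crypts were mouse 126 for Mcm7 (0.738) and Cdt1 (0.644), mouse 127 for Cdc6 (0.732) and mouse 128 for Mcm5 (0.698), and the highest villi were mouse 126 for Mcm4 (0.729) and mouse 129 for Mcm3 (0.882).

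Of the rest in the crypt, Cdc6 was highest in mouse 368 at 20 ppm on day 8 (0.808) and in mouse 245 at 5 ppm on day 91 (0.747), Mcm4 was highest in mouse 81 at 0.1 ppm on day 91 (0.84), and Mcm3 was lowest in mouse 163 at 1.4 ppm on day 91 (0.754). Of the rest in the villus, the shares were 1 for Mcm4 at 1.4 and 180 ppm on day 8 and at 5 and 20 ppm on day 91, for Mcm5 at 20 ppm on day 91, for Orc1 at 20, 60 and 180 ppm on day 8, and for Cdc6 at 0.1 ppm on day 91. Mcm2 was highest in mouse 85 at 0.1 ppm (0.859) and Pcna was lowest in mouse 161 at 1.4 ppm (0.743), both in the villus on day 91.

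Effects that differed between groups were those of Mcm2, by the probe used: the villus trend minus the crypt trend on day 8 (−0.353 per step, adjusted p = 0.0279) and the 180 ppm effect in the villus on day 91 minus that on day 8 (2.677, adjusted p = 0.0859).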

How the results depend on the processing

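Depth limited Mcm4, Mcm5, Orc1 and Cdc6, whose probes had few reads. The number of members called was kept within 1.5 times for 43 of 50 comparisons with DESeq2, 45 with its size factors in edgeR, 47 with no filter on low counts, 40 with trended dispersions, 44 after thinning, 47 without mouse 90 and 45 without mice 48 and 49. Many comparisons had no member called in the main fit, and those with none in either fit count as kept. Only the number was compared, not which members were called. For the changes below the cause was not tested, except that fits on fewer mice or thinned counts hold less data. Interactions, trends and doses of 0.1 to 20 ppm were not run with single libraries left out. DESeq2 gave no adjusted p in some sparse cases, which were taken as not called.

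With DESeq2 the number called went from 0 to 1 at 180 ppm in the villus on day 8, from 1 to 2 at 5 ppm in the villus on day 91, from 4 to 2 for the crypt trend on day 91, from 1 to 2 and from 0 to 1 for the trend difference on days 8 and 91, and, between crypt and villus, from 0 to 1 in untreated mice on day 8 and from 3 to 5 at 20 ppm on day 91. With DESeq2 size factors it was 0 at 60 and at 180 ppm in the crypt on day 91, 1 at 20 ppm in the villus on day 91, 6 between crypt and villus at 20 ppm on day 91 and 0 for the day by 180 ppm interaction in the villus. With no filter it was 1 at 180 ppm in the crypt and 2 at 20 ppm in the villus on day 91, and 0 for that interaction. With trended dispersions it was 0 at 180 ppm in the crypt on day 91, 0 and 2 for the crypt trends of days 8 and 91, and, between crypt and villus, 1, 3, 3 and 4 at 0.1, 1.4, 5 and 180 ppm on day 8 and 2, 3 and 4 at 5, 60 and 180 ppm on day 91. With a fit per compartment and day it was 1 at 180 ppm in the crypt on day 8, and 2, 5 and 5 at 20, 60 and 180 ppm in the crypt on day 91. After thinning it was 1 at 20 and at 180 ppm in the villus on day 8, 3 at 5 ppm in the villus on day 91, 1 for the trend difference on day 91, and, between crypt and villus, 1 in untreated mice on day 8 and 3 at 60 ppm on day 91. Without mouse 90 it was 1 for the trend difference on day 91, and between crypt and villus 2 at 0.1 ppm on day 8 and 5 at 20 ppm on day 91. Without mice 48 and 49 it was 1 at 60 ppm in the villus and 1 for the crypt trend on day 8, 2 between crypt and villus in untreated mice on day 8, 5 at 20 ppm on day 91 and 0 for the day interaction in the villus. Over the exposed groups alone it was 1 for the crypt and 1 for the villus trend on day 8, and with dose in ppm 1 for the crypt trend on day 8.

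With the mouse as a replicate block, on the mice with both libraries, the number called was 4 and 1 for the trend difference on days 8 and 91, 4 between crypt and villus in untreated mice on day 8, 6 at 20 ppm on day 91 and 2 for the compartment by 180 ppm interaction on day 8. The shares of all probes called in this fit were not computed. Of the calls made without the block, the paired fit lost Mcm5 at 0.1 ppm on day 8 (2.53, adjusted p = 0.112) and Cdc6 at 0.1 ppm on day 91 (2.69, adjusted p = 0.106), and no other call of a member was lost.

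Without 1 library at a time, the number called was 0 to 1 at 180 ppm in the crypt and 0 to 1 in the villus on day 8, 0 to 3 in the crypt and 1 to 3 in the villus at 180 ppm on day 91, and, between untreated crypt and villus, 0 to 3 on day 8 (3 without the villus of mouse 48) and 1 to 6 on day 91 (1 without the villus of mouse 3). It was 0 in the crypt on day 91 without mouse 8 or 484, and Cdc6 was the sole call in the villus on day 91 without mouse 3 or 6. Where the probe used was called, other tested probes of the same gene were also called with the same sign in 25 cases. They kept the sign without a call in 85 cases and did not keep it in 18. A Pcna probe had −4.03 at 180 ppm and −0.037 per step in the crypt on day 91, and between crypt and villus −1.97, −4.85 and 0 at 1.4, 5 and 60 ppm on day 8 and −4.51, −3.01 and −5.52 at 0.1, 1.4 and 180 ppm on day 91. A Mcm2 probe in the villus on day 91 had −0.56, −0.64, −0.82 and −0.47 at 5, 20, 60 and 180 ppm and −0.022 per step. Between crypt and villus, a Cdc6 probe had −5.38 at 1.4 ppm on day 8, a Mcm7 probe −0.014 at 20 ppm on day 8 and −0.29 at 5 ppm on day 91, a Cdt1 probe −0.20 at 60 ppm on day 8 and another Mcm2 probe −0.051 at 180 ppm on day 8.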
